A study of Danio rerio with 28 samples.

Results

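The 33 genes described here make sterols or handle cholesterol, and they were measured in adult zebrafish brains, in sorted cells that express the macrophage reporter mpeg1. They were chosen by name from a list of 32 symbols, ignoring case and allowing the name without a final paralog letter. Under that rule 31 symbols matched 33 of the 32520 Ensembl gene IDs of the count table. Of these, 20 IDs belong to enzymes of sterol synthesis, 5 to regulators, 5 to uptake and intracellular movement of cholesterol, and 3 to its efflux. The symbol cyp51 matched no row. Gene names are printed as the supplied name table gives them, many in human-style capitals, and a name carried by several IDs is printed with its ID.

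Cells make cholesterol from acetyl-CoA through mevalonate, farnesyl diphosphate and squalene, after which lanosterol is trimmed to cholesterol in a series of steps. When the membranes of the endoplasmic reticulum are poor in sterol, SCAP carries the SREBP transcription factors to the Golgi for activation, INSIG proteins hold them back when sterol is plentiful, and SREBP2 raises the genes of synthesis and of the LDL receptor. Oxysterols activate the liver X receptors, which raise the ABC transporters that export cholesterol. In the brain, microglia take up cholesterol with myelin and dying cells and return it through apolipoproteins. These roles are best known from mammals.

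The fish carried TgBAC(ccl34b.1:eGFP), in which a bacterial artificial chromosome with the chemokine gene ccl34b.1 drives a green reporter, and Tg(mpeg1:DsRedx), in which the promoter of the macrophage gene mpeg1 drives a red one. From each whole brain, freed with trypsin, 100 mpeg1+ cells were sorted from the ccl34b.1+ gate and 100 from the ccl34b.1- gate, and the labels call both microglia. At 6 months of age, 3 fish received E. coli, 4 received PBS (the buffer alone) and 2 were controls with no treatment named in the labels, and 5 untreated fish aged 4 months formed a separate experiment. Each fish gave 1 library per gate, so there were 28 libraries in 8 groups. The labels used here give neither the site of injection nor the time between injection and sorting.

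Library totals were 2241693 to 9691032 counts in the injection experiment. In untreated fish they were 20400862 to 30370520 in ccl34b.1+ cells and 14237065 to 24015664 in ccl34b.1- cells. Levels are given as CPM, a gene's count relative to the library total in the usual scaling, set within each experiment separately, so levels of untreated fish and of the injection experiment are set side by side without a test. The reporter gene ccl34b.1 (ENSDARG00000093608) was higher in ccl34b.1+ than in ccl34b.1- cells in every comparison of gates (log2 fold changes of 3.58 in E. coli, 5.96 in PBS, 6.01 in control and 4.67 in untreated fish), which restates the sort. Of 7 dendritic markers, 4 were lower in ccl34b.1+ cells at an edgeR adjusted p under 0.05 in every gate comparison, and none was higher at that threshold. Among all genes, 0.869% to 3.71% reached that threshold, depending on the treatment. The 4 included siglec15l, flt3 and ID2 each time. For siglec15l the log2 fold changes were -7.69 in E. coli, -8.22 in PBS, -7.79 in control and -13.3 in untreated fish. Positive values were held by 1 of the 7 in E. coli, 2 in PBS, 3 in control and 3 in untreated fish. Summed over the 7, ccl34b.1+ cells averaged more than ccl34b.1- cells in PBS (37340 against 32570 CPM), control (48690 against 43920 CPM) and untreated fish (30020 against 28480 CPM). In E. coli fish they averaged less (6598 against 19720 CPM). The share of each marker in these sums is not given here, and the sums do not follow the markers that passed. A list of 10 microglia and gate markers, apoeb, apoc1 and P2RY12 among them, summed to 4513 to 83250 CPM in ccl34b.1+ libraries and to 624 to 4528 CPM in ccl34b.1- libraries, where P2RY12 had 0 counts in control fish. Not all 10 followed the gate: 4 had negative log2 fold changes in E. coli, 3 in PBS, 3 in control and 1 in untreated fish. In E. coli fish c1qb (-3.45, edgeR adjusted p = 0.0112) and c1qc (-2.57, edgeR adjusted p = 0.0462) were lower in ccl34b.1+ cells.

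Detection set what could be seen, since each library came from 100 cells and most synthesis genes were absent from some libraries. The regulators srebf2, insig1 and NR1H3, the lysosomal carriers NPC1 and NPC2 (2 IDs) and the transporter abca1b had counts in all 28 libraries. HMGCS1 had counts in 27, MSMO1 in 21, HSD17B7 in 20, SQLE (ENSDARG00000079946) in 15 and NSDHL in 4. ABCG1, an efflux transporter, had 0 counts in all 28 libraries, which allows up to 3 counts and does not show that it is absent. SQLE (ENSDARG00000063319) had 2 counts in all. A filter on low counts left 30 of the 33 genes for the tests of the injection experiment (18 of 20 synthesis genes and 12 of 13 others) and 19 for those of untreated fish (8 synthesis genes and 11 others).

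**Figure D1:**
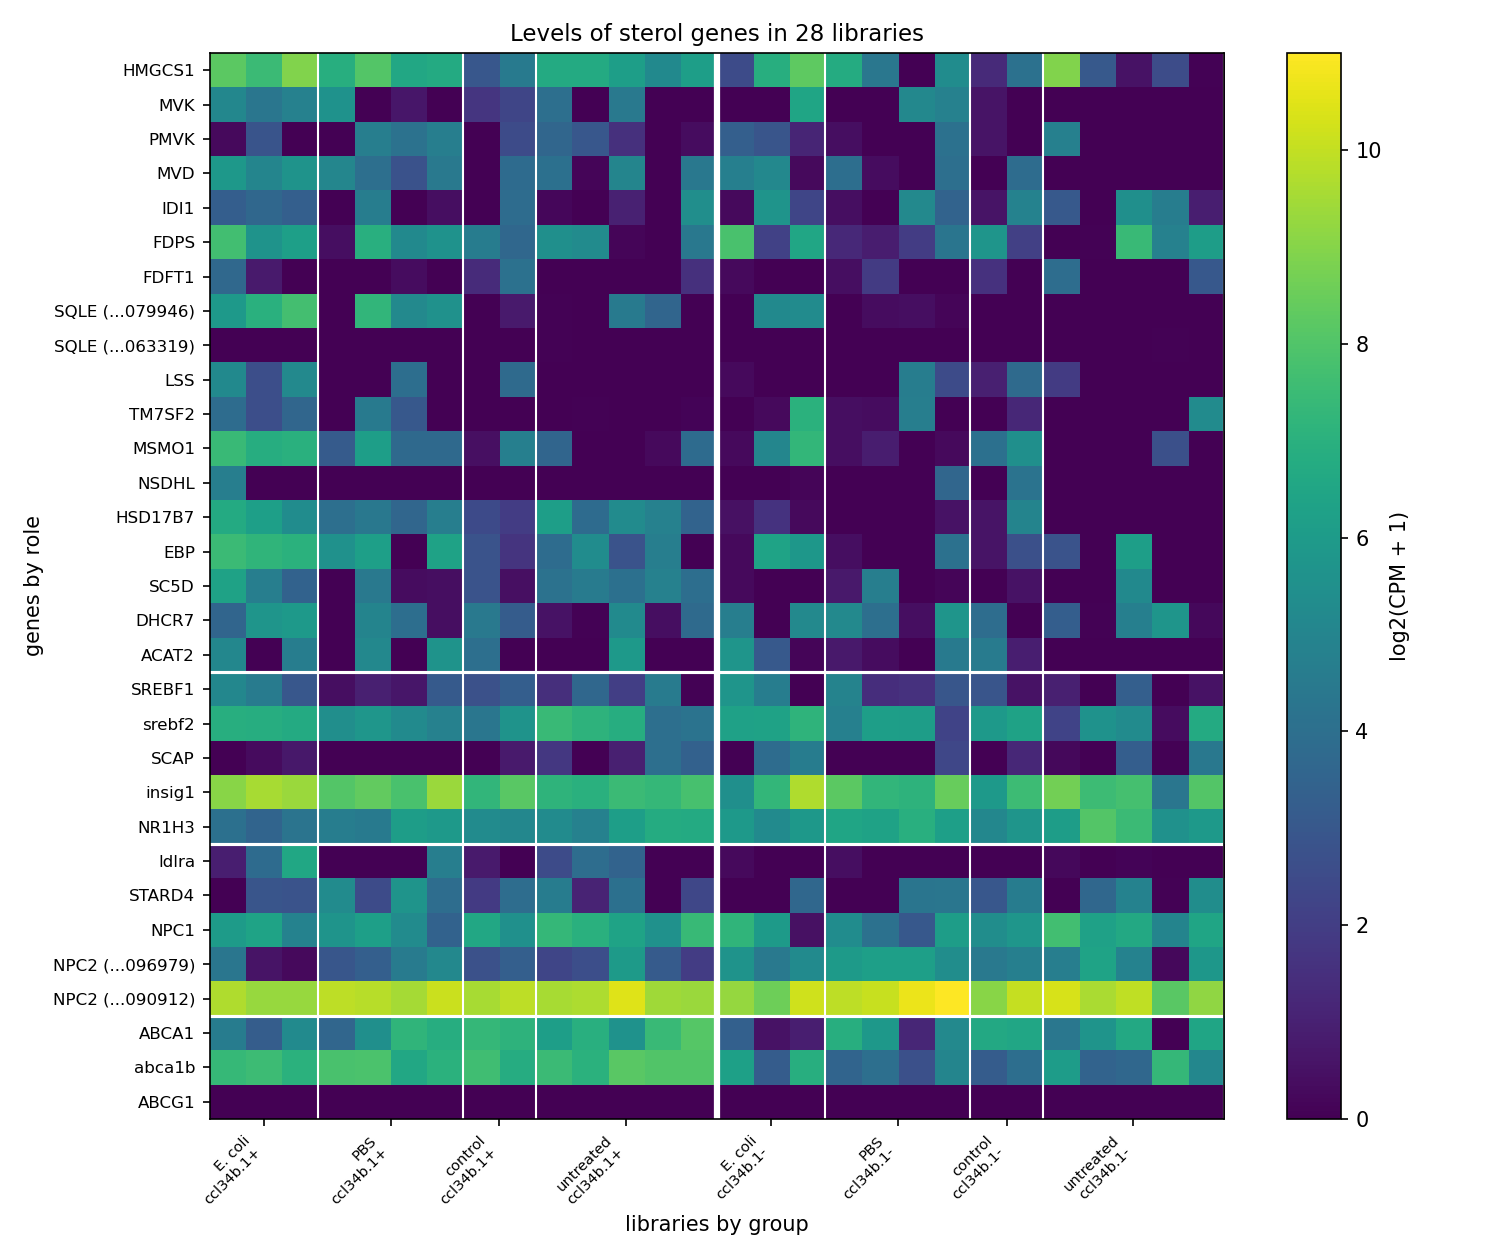
Level of 31 of the 33 genes (rows, by role) in each of the 28 libraries (columns, by group), as log2(CPM + 1). Numbers in brackets after a shared name are the last digits of its gene ID. Synthesis genes are patchy, with many libraries at 0, while insig1, NPC2 (ENSDARG00000090912) and abca1b have counts in every library, and ABCG1 is at 0 throughout.

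The main question was how cells of each gate differed between fish given E. coli and fish given PBS. In ccl34b.1+ cells no gene of the 33 passed the threshold, an adjusted p under 0.05 in edgeR's quasi-likelihood test with Benjamini-Hochberg adjustment over all 12421 genes tested, where 188 genes, or 1.51%, passed. At an unadjusted p under 0.05 there was 1 gene of the 30 tested, where 15.9% of all genes were, and DESeq2 called 0 of the 27 to which it gave an adjusted p, where it called 10.8% of all such genes. The fitted values of the synthesis genes nevertheless lay on the higher side: 16 of 18 were positive, or 88.9%, against 41.8% of all genes, and their median log2 fold change was 1.23, against -0.19 over all genes. Of the 12 other genes, 6 were positive, with a median of 0.16. In all 7 fits that left out 1 library each, 15 to 18 synthesis genes were positive, with medians of 1.01 to 2.06, the highest without PBS library 2, and against control fish in place of PBS fish the synthesis median was 2.93. The median of the other genes changed sign between fits: it was -0.22 against control fish, -0.12 with only the compared groups in the fit, and -0.06 to 0.41 with 1 library left out. That synthesis genes leaned upward in these libraries was already known when the genes were chosen, so the count is a description. In sorted pools of cells, fewer cells of a type and less RNA per cell cannot be told apart.

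The 20 synthesis genes together summed to 1415, 882 and 1442 CPM in the 3 E. coli libraries of ccl34b.1+ cells, against 367, 1006, 294 and 440 CPM in the 4 PBS libraries. Only PBS library 2 reached into the E. coli range. The sum averaged 1246 ± 316 CPM in E. coli fish (SD, n = 3), 526.5 ± 325 CPM in PBS fish (SD, n = 4) and 167 ± 21.0 CPM in control fish (SD, n = 2), and it stood at 283 ± 74.8 CPM in untreated fish (SD, n = 5). Scaled by raw library totals, the means were 1395 CPM in E. coli, 498 CPM in PBS and 126 CPM in control fish.

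**Figure D2:**
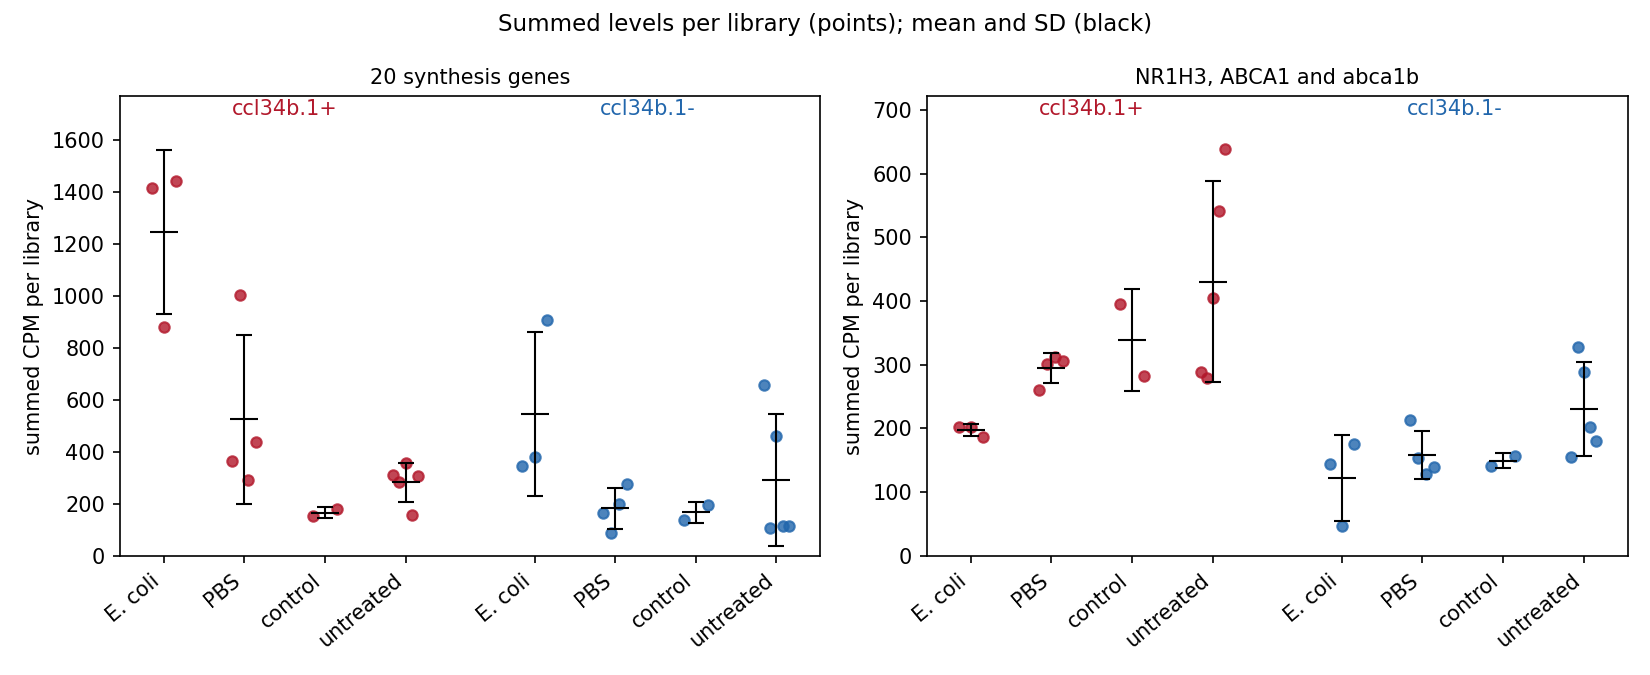
Summed CPM per library (points) with mean and SD (black) for the 20 synthesis genes (left) and for NR1H3, ABCA1 and abca1b (right), by treatment, with ccl34b.1+ cells in red and ccl34b.1- cells in blue. In ccl34b.1+ cells the synthesis sum is 882 to 1442 CPM after E. coli and 294 to 1006 CPM after PBS, and the other sum is 187 to 202 CPM after E. coli and 261 to 312 CPM after PBS. By raw library totals the E. coli and PBS ranges of that other sum overlap, and in ccl34b.1- cells they overlap as drawn.

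Of the synthesis genes, 3 of 18 (16.7%) had E. coli libraries all above the PBS libraries in ccl34b.1+ cells, against 6.10% of all genes tested, and none had them all below, against 6.93%. They were MSMO1, HSD17B7 and EBP, which act late in the pathway. MSMO1, the oxidase that starts removal of methyl groups from the sterol ring, had 175, 115 and 125 CPM in E. coli libraries and 7.82, 70.2, 12.4 and 12.7 CPM in PBS libraries. Its log2 fold change was 2.42 ± 1.36 (SE), with an edgeR adjusted p = 0.374. PBS library 2 lay well above the other PBS libraries and still below every E. coli library.

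HSD17B7, a ketoreductase of the same demethylation steps, had 104, 73.0 and 39.8 CPM in E. coli libraries and 14.98, 20.4, 11.5 and 25.4 CPM in PBS libraries (log2 fold change 2.00 ± 1.65, SE; edgeR adjusted p = 0.657). EBP, which moves a double bond within the ring, had 178, 145 and 128 CPM in E. coli libraries and 46.1, 73.6, 0 and 80.0 CPM in PBS libraries (1.59 ± 1.55, SE; edgeR adjusted p = 0.751). In both genes the groups did not overlap, and neither passed the threshold. SC5D, a desaturase near the end of the pathway, had 81.0, 25.3 and 10.0 CPM in E. coli libraries and 0, 20.7, 0.295 and 0.343 CPM in PBS libraries, so the groups overlapped through PBS library 2 (2.86 ± 2.31, SE; edgeR adjusted p = 0.639). NSDHL and FDFT1, with the smallest unadjusted p among the synthesis genes, each averaged under 20 CPM and were seen in few libraries.

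Of the enzymes before lanosterol, HMGCS1 and FDPS had positive values with wide errors. HMGCS1, which makes HMG-CoA, averaged 321 ± 150 CPM in E. coli libraries and 147 ± 81.8 CPM in PBS libraries (SD, n = 3 and 4; log2 fold change 1.13 ± 1.22, SE). FDPS, farnesyl diphosphate synthase, averaged 108 ± 82.6 CPM in E. coli libraries and 51.0 ± 50.2 CPM in PBS libraries (1.09 ± 1.29, SE). PMVK, a mevalonate pathway kinase, and ACAT2, which joins acetyl-CoA units, had the only negative values of the synthesis genes tested, -2.96 and -0.12. CYP51A1, the lanosterol demethylase, lies outside the matching rule and was added after its row name was seen; it had 270, 248 and 361 CPM in E. coli libraries and 336, 341, 191 and 612.5 CPM in PBS libraries, with a log2 fold change of -0.34 ± 1.76 (SE). The E. coli libraries of this gene lay inside the PBS range.

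**Figure D3:**
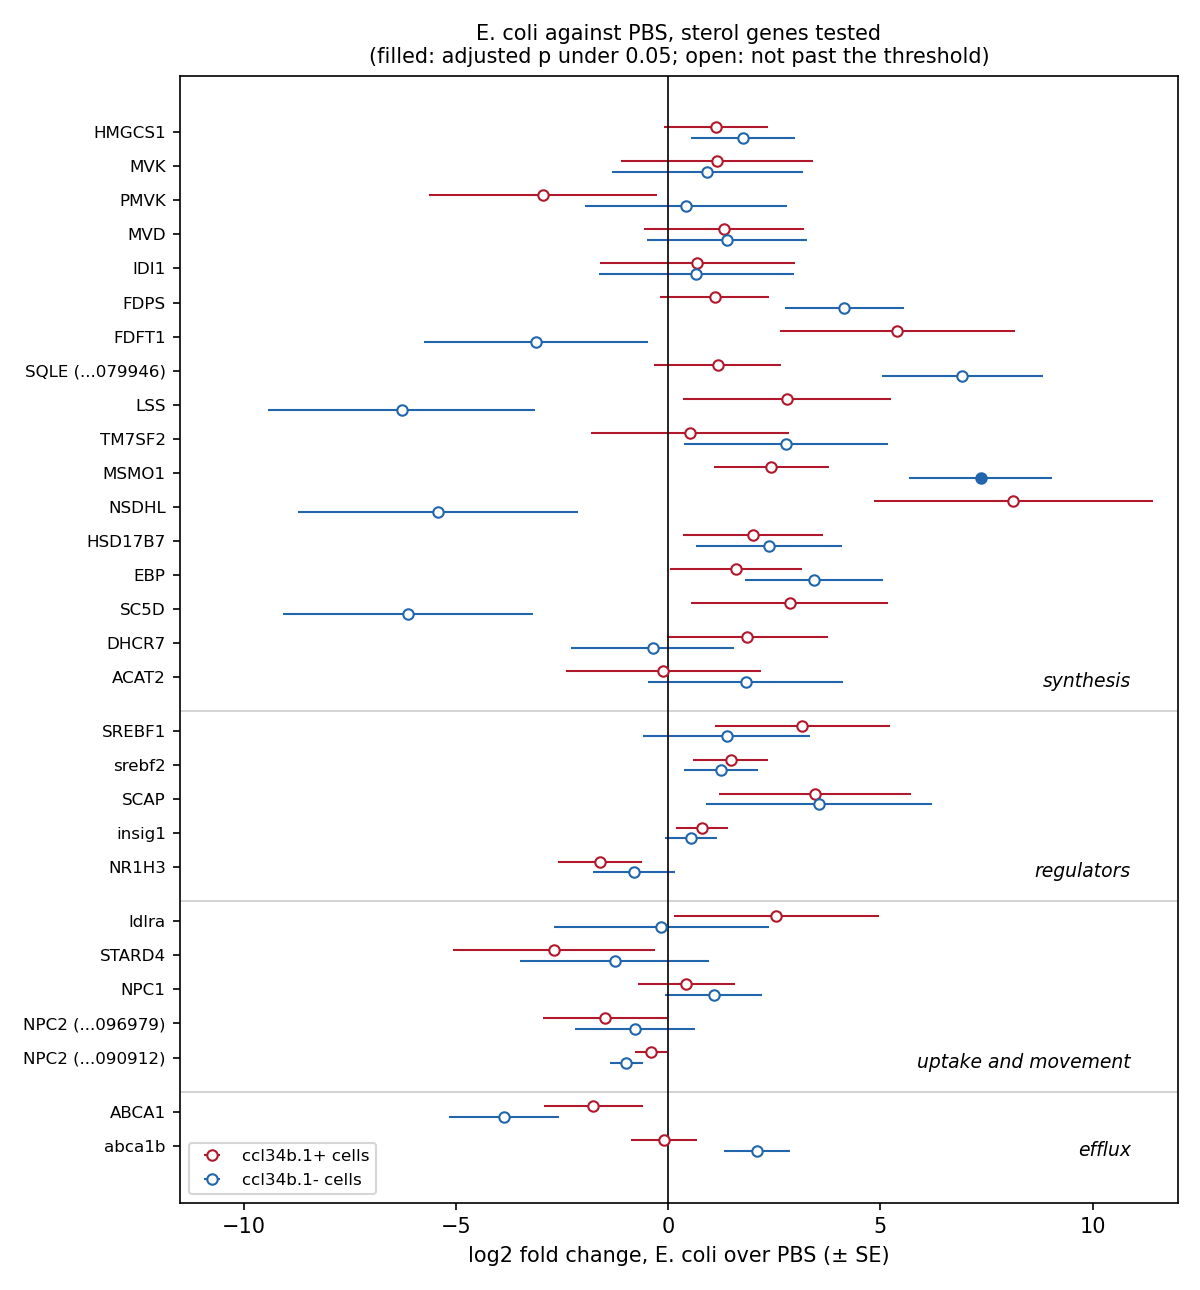
Log2 fold change of E. coli over PBS with its SE for 29 of the 30 genes tested, by role, in ccl34b.1+ cells (red) and ccl34b.1- cells (blue). Only MSMO1 in ccl34b.1- cells is filled, the mark of an adjusted p under 0.05; in ccl34b.1+ cells 15 of the 17 synthesis genes drawn lie right of 0.

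Among the regulators, srebf2, which encodes SREBP2, had 118, 113 and 105 CPM in E. coli libraries of ccl34b.1+ cells and 42.3, 54.2, 37.5 and 27.8 CPM in PBS libraries. The groups did not overlap, and the E. coli libraries lay close together, but the gene did not pass (log2 fold change 1.47 ± 0.88, SE; edgeR adjusted p = 0.417). SREBF1, whose product acts more on fatty acid genes, had 33.1, 23.1 and 7.02 CPM in E. coli libraries and 0.326, 0.940, 0.591 and 7.55 CPM in PBS libraries, overlapping only in the lowest E. coli and the highest PBS library (3.16 ± 2.06, SE; edgeR adjusted p = 0.477). The SREBP brake insig1, itself an SREBP target, ranged over 523 to 759 CPM in E. coli libraries and 232 to 658 CPM in PBS libraries (0.79 ± 0.61, SE). SCAP was under 1 CPM in every library of these groups.

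NR1H3, the liver X receptor gene of macrophages, went the other way, with 15.5, 10.6 and 17.7 CPM in E. coli libraries and 24.3, 22.2, 69.7 and 61.4 CPM in PBS libraries. Here too the groups did not overlap and the test was not passed (log2 fold change -1.60 ± 0.99, SE; edgeR adjusted p = 0.437). By raw library totals the highest E. coli library lay above the lowest PBS library, so the separation of NR1H3 depended on the scaling. Of the 12 genes tested outside synthesis, srebf2 alone had E. coli libraries all higher and NR1H3 alone all lower. That is 8.33% in each direction, against 6.10% and 6.93% of all genes. Control libraries had 39.1 and 33.5 CPM of NR1H3 and 19.0 and 49.7 CPM of srebf2. ABCA1, the transporter that loads cholesterol onto apolipoproteins and a liver X receptor target, had 23.6, 8.61 and 37.9 CPM in E. coli libraries and 11.2, 44.2, 148 and 115 CPM in PBS libraries (-1.77 ± 1.16, SE; edgeR adjusted p = 0.484). Its paralog abca1b differed little in value, at 131 to 183 CPM in E. coli libraries and 94.5 to 234 CPM in PBS libraries (-0.10 ± 0.77, SE). The 3 genes together summed to 202, 202 and 187 CPM in E. coli libraries and 261, 300, 312 and 306 CPM in PBS libraries, with no overlap. Scaled by raw library totals the sums overlapped, at 214 to 224.5 CPM in E. coli libraries and 206 to 325 CPM in PBS libraries.

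For uptake and movement no direction was shared in ccl34b.1+ cells: 2 of 5 values were positive, and no gene had groups apart. The LDL receptor gene ldlra had 0.925, 13.5 and 94.0 CPM in E. coli libraries and 0, 0, 0 and 24.7 CPM in PBS libraries (log2 fold change 2.55 ± 2.41, SE). STARD4, a carrier of cholesterol between membranes, stood at 0 to 6.39 CPM in E. coli libraries and 4.70 to 50.5 CPM in PBS libraries (-2.70 ± 2.38, SE). NPC1 and NPC2, which pass cholesterol out of lysosomes, had log2 fold changes of 0.43 ± 1.15 for NPC1, -0.41 ± 0.38 for NPC2 (ENSDARG00000090912) and -1.49 ± 1.46 for NPC2 (ENSDARG00000096979). Summed over 8 uptake, movement and efflux genes, levels were 984 ± 97.7 CPM in E. coli libraries and 1272 ± 145 CPM in PBS libraries (SD, n = 3 and 4), most of it from NPC2 (ENSDARG00000090912). By raw library totals these means came closer, at 1100 CPM in E. coli and 1184 CPM in PBS libraries.

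The same ccl34b.1+ libraries differed in cell markers. The 10 microglia and gate markers summed to 7958, 4513 and 6047 CPM in E. coli libraries and 63380, 48670, 53060 and 73280 CPM in PBS libraries, and 4 of the 10 fell, among them apoeb (log2 fold change -3.89 ± 0.62, SE; edgeR adjusted p = 0.00317) and apoc1 (-2.79 ± 0.39, SE; edgeR adjusted p = 3.77e-05), which carry lipid. All 10 markers still had counts in every E. coli library. The radial glia list (11 IDs) summed to 370 to 449 CPM in E. coli libraries and 1460 to 2302 CPM in PBS libraries, with GFAP, S100B, her4.1 and 3 other IDs at 0 counts in both groups. The dendritic list (7 IDs) summed to 4116 to 10820 CPM in E. coli libraries and 23040 to 60640 CPM in PBS libraries. Of the 7, only cd74a passed the threshold, on the lower side (log2 fold change -2.58, edgeR adjusted p = 6.51e-05), and 2 had positive values. The sum is therefore not a level shared by the list. The endothelial and mural list (8 IDs) summed to 32.7 to 145 CPM in E. coli libraries and 95.1 to 266 CPM in PBS libraries, and the oligodendrocyte list (10 IDs) to 3.44 to 324 CPM in E. coli libraries and 92.0 to 240 CPM in PBS libraries. B cell, T cell and neuron lists stayed at or under 14.1 CPM in these libraries, and 3 erythrocyte genes had 0 counts in all 28. The part of these shifts in the sterol genes was not tested.

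In ccl34b.1- cells, 1 of the 30 genes tested passed between E. coli and PBS, MSMO1, where 0.403% of all genes passed (50 of 12421). Of the synthesis genes 12 of 18 were positive, or 66.7%, against 46.3% of all genes, with a median log2 fold change of 1.15 against -0.08 over all genes. At an unadjusted p under 0.05 there were 9 of the 30 genes, where 19.5% of all genes were. In the 7 fits that left out 1 library each, 10 to 14 synthesis genes were positive, and their median ranged over 0.45 to 1.85. It was 0.45 without PBS library 1, 0.51 without PBS library 2, 0.62 without E. coli library 3 and 1.85 without PBS library 4. No synthesis gene had groups apart in either direction, against 3.34% of all genes with E. coli libraries all higher and 4.42% with all lower. Of the other 12 genes, 6 were positive.

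MSMO1 had 0.203, 31.6 and 154 CPM in E. coli libraries of ccl34b.1- cells and 0.344, 0.841, 0 and 0.226 CPM in PBS libraries. It was near 0 in all PBS libraries and in E. coli library 1, and high in the other two. The log2 fold change was 7.36 ± 1.69 (SE; edgeR adjusted p = 0.0397), and the pooled counts of 1664 in E. coli and 6 in PBS libraries gave a ratio of 265, with a 95% counting interval of 122 to 724. Most of the 1664 counts came from E. coli library 3, and the interval leaves out the spread between libraries. The call did not hold without E. coli library 2 or 3 or without any 1 of the PBS libraries (edgeR adjusted p of 0.0509 to 0.143). Control fish, at 15.7 and 43.3 CPM, lay within the E. coli range, and against them the log2 fold change was 1.07 (edgeR adjusted p = 0.894).

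Among the other synthesis genes, some had the same pattern over the 3 E. coli libraries of ccl34b.1- cells and others did not. SQLE (ENSDARG00000079946), squalene epoxidase and a rate-controlling step, had 0, 35.9 and 38.6 CPM in E. coli libraries and 0, 0.280, 0.323 and 0.113 CPM in PBS libraries (log2 fold change 6.93 ± 1.90, SE; edgeR adjusted p = 0.108). EBP had 0.203, 82.7 and 56.3 CPM in E. coli libraries and 0.344, 0, 0 and 16.4 CPM in PBS libraries (3.43 ± 1.63, SE; edgeR adjusted p = 0.250). As with MSMO1, E. coli library 1 was among the low ones in both. FDPS did not follow this order, with 227, 3.36 and 90.0 CPM in E. coli libraries and 1.38, 0.841, 2.91 and 18.5 CPM in PBS libraries (4.15 ± 1.399, SE; edgeR adjusted p = 0.209). Nor did ACAT2, with 52.9, 7.40 and 0.101 CPM in E. coli libraries.

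In ccl34b.1- cells the 20 synthesis genes together summed to 347, 381 and 909 CPM in E. coli libraries and 166, 86.7, 200 and 277 CPM in PBS libraries, without overlap. In E. coli library 1, FDPS alone gave 227 of the 347 CPM. With FDPS left out, that library would lie within the PBS range, so the separation rests on 1 gene there. Control fish, at 140 and 196 CPM, were in the PBS range, and untreated fish spanned 108 to 656.5 CPM.

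Among the genes of handling in ccl34b.1- cells, the ABC transporters of the same family had opposite signs. ABCA1 had 9.33, 0.449 and 0.911 CPM in E. coli libraries and 117, 56.7, 1.29 and 35.7 CPM in PBS libraries (log2 fold change -3.88 ± 1.29, SE; edgeR adjusted p = 0.203). abca1b had 75.4, 8.30 and 118 CPM in E. coli libraries and 10.7, 15.4, 5.49 and 31.5 CPM in PBS libraries (2.09 ± 0.78, SE; edgeR adjusted p = 0.230). Each pair of groups overlapped through 1 library and neither gene passed. DESeq2 on the same libraries called ABCA1 lower, 1 of 7 calls among the 27 sterol genes to which it gave an adjusted p, where it called 12.7% of all such genes. The calls went both ways, with MSMO1, FDPS and SQLE (ENSDARG00000079946) among the higher and NPC2 (ENSDARG00000090912) and SC5D among the lower. SC5D had 25.2 CPM in PBS library 2 and 0 to 0.688 CPM in the other PBS libraries.

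NPC2 (ENSDARG00000090912), the soluble lysosomal carrier, had 610, 385 and 1168 CPM in E. coli libraries of ccl34b.1- cells and 972, 1078, 1635 and 2032 CPM in PBS libraries, overlapping only through E. coli library 3 (log2 fold change -0.99 ± 0.39, SE; edgeR adjusted p = 0.236). The regulator srebf2 had 77.5, 79.4 and 142 CPM in E. coli libraries and 26.8, 69.8, 68.2 and 3.61 CPM in PBS libraries, with no overlap (1.24 ± 0.88, SE; edgeR adjusted p = 0.468). NR1H3 again had its groups apart in the other direction, at 37.2 to 59.6 CPM in E. coli libraries and 72.2 to 121 CPM in PBS libraries (-0.81 ± 0.96, SE; edgeR adjusted p = 0.736). Scaled by raw library totals, the highest E. coli library of NR1H3 again lay above the lowest PBS library. With 1 of 12 genes outside synthesis apart in each direction, the share was 8.33%, against 3.34% and 4.42% of all genes. Control libraries overlapped the E. coli libraries in both genes, at 60.7 and 79.8 CPM for srebf2 and 32.8 and 52.0 CPM for NR1H3.

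**Figure D4:**
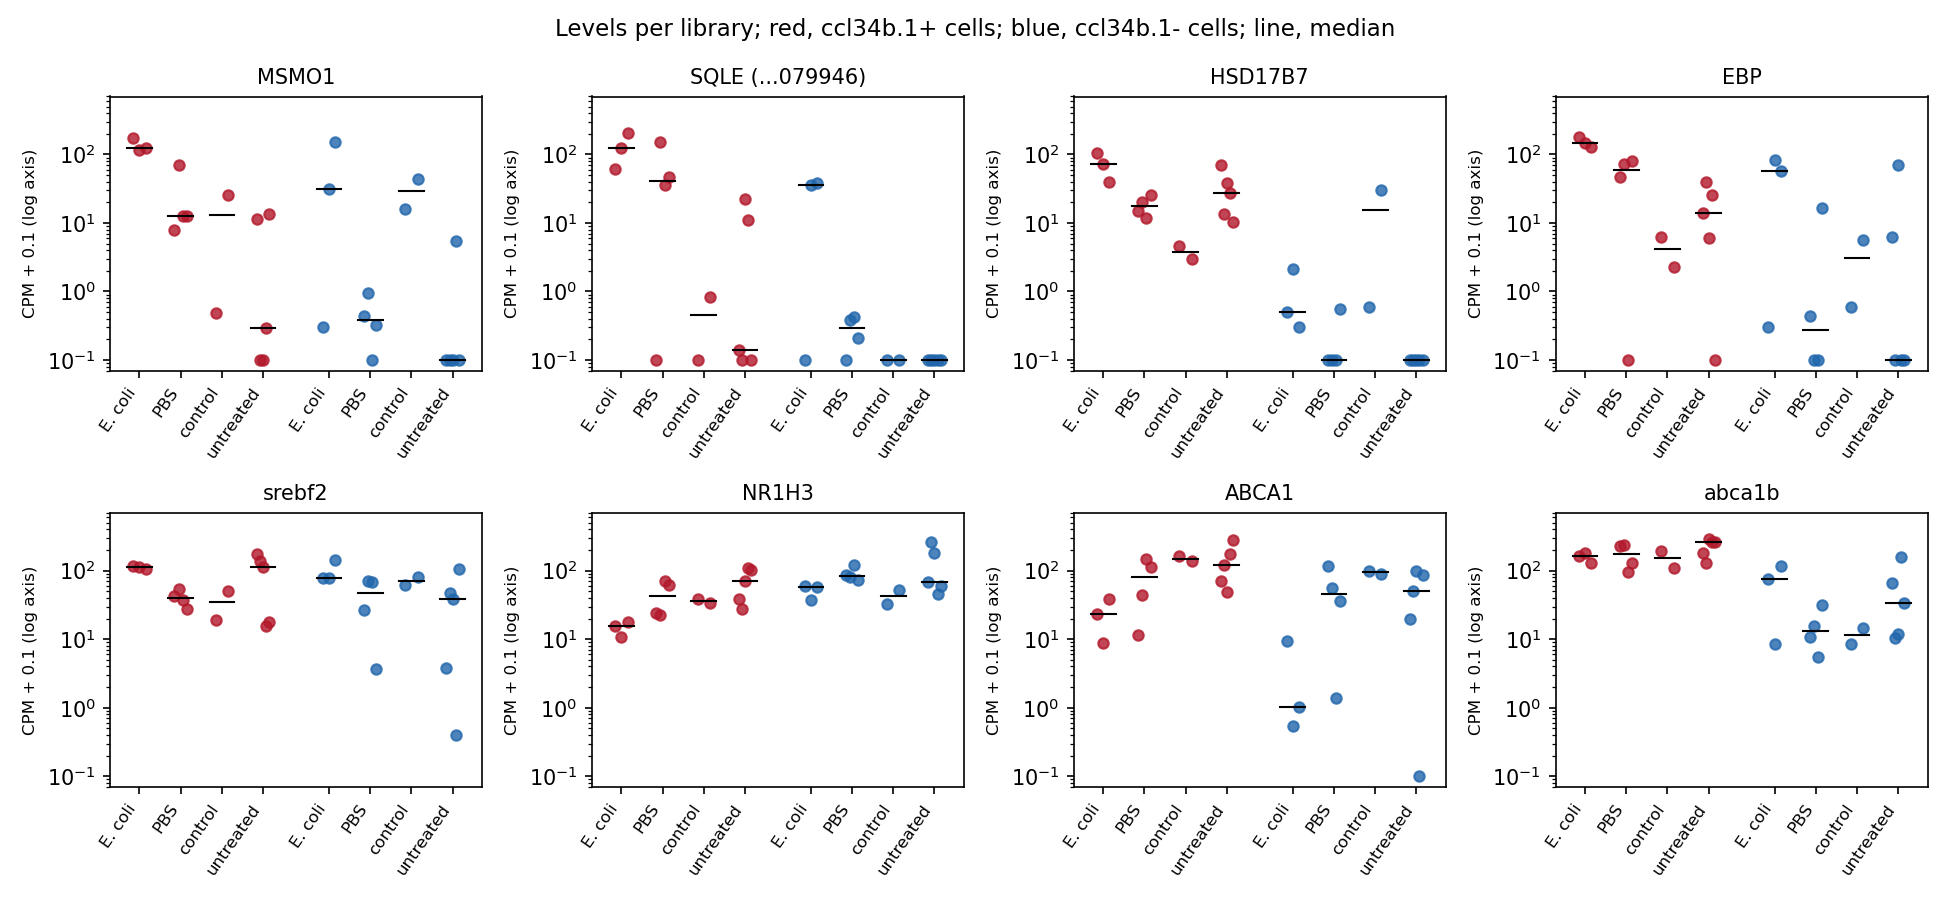
Level of 8 genes in every library (points; CPM + 0.1 on a log axis, line at the median) by treatment, with ccl34b.1+ cells in red and ccl34b.1- cells in blue. In ccl34b.1- cells after E. coli, MSMO1, SQLE (ENSDARG00000079946) and EBP are high in the same 2 libraries and near 0 in the other one. As scaled here, srebf2 and NR1H3 have E. coli and PBS libraries apart in each gate, in opposite directions. By raw library totals the NR1H3 groups overlap in each gate. In ccl34b.1- cells the control libraries of srebf2 and NR1H3 overlap the E. coli libraries.

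The neutrophil marker list summed high in 2 of the 3 E. coli libraries of ccl34b.1- cells. Only 4 of its 8 symbols matched the table. Over the 4 IDs of the list found in the table the sum was 8.52, 1275 and 2177 CPM in E. coli libraries 1 to 3 and 5.16, 12.1, 0 and 2.26 CPM in PBS libraries, and lyz had 0 counts in every library. The 2 libraries with high sums were those with high MSMO1, SQLE and EBP, while FDPS and ACAT2 were highest in E. coli library 1. In ccl34b.1+ cells the same list summed to 55.3 to 107 CPM in E. coli libraries and 1.37 to 72.0 CPM in PBS libraries. In the same ccl34b.1- libraries the oligodendrocyte list summed to 68.4 to 216 CPM in E. coli and 332 to 539 CPM in PBS libraries, and the B cell list (5 IDs) to 10.95 to 61.5 CPM in E. coli and 25.1 to 197 CPM in PBS libraries. The part of any of these markers in the sterol values was not tested.

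Whether the E. coli difference itself differed between the gates was tested as an interaction, ccl34b.1+ minus ccl34b.1-. Of the 30 genes none passed, where 0.274% of all genes did (34 of 12421); 7 had an unadjusted p under 0.05, against 14.0% of all genes, and DESeq2 called 1 of 28, SC5D, against 6.14%. For MSMO1 the difference was -4.94 ± 2.04 (SE, edgeR adjusted p = 0.276) and for SQLE (ENSDARG00000079946) it was -5.77 ± 2.35 (SE, edgeR adjusted p = 0.274). For both genes a difference in response between the gates is therefore not shown. For srebf2 the difference was 0.22 ± 1.25 (SE), and for abca1b it was -2.19 ± 1.101 (SE, edgeR adjusted p = 0.367).

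The gates themselves were compared within each treatment. In PBS fish, 3 of the 30 genes were higher in ccl34b.1+ than in ccl34b.1- cells and none lower, where 2.69% of all genes passed (334 of 12421). abca1b had 225, 234, 94.5 and 130 CPM in ccl34b.1+ cells, against 10.7, 15.4, 5.49 and 31.5 CPM in ccl34b.1- cells. These groups lay well apart (log2 fold change 3.43 ± 0.78, SE; edgeR adjusted p = 0.00868), and the call held in each of the 13 alternatives (edgeR or DESeq2 adjusted p of 2.63e-05 to 0.0424). The same gene stood at 159 ± 26.2 against 67.3 ± 55.4 CPM in E. coli fish (SD, n = 3 each), 152 ± 58.7 against 11.5 ± 4.44 CPM in control fish (SD, n = 2 each) and 223 ± 64.8 against 55.9 ± 61.0 CPM in untreated fish (SD, n = 5 each), each time ccl34b.1+ against ccl34b.1- cells. In the main edgeR fit each of these was short of the threshold, while DESeq2 called abca1b in control fish.

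MSMO1 was higher in ccl34b.1+ cells of PBS fish, at 7.82 to 70.2 CPM against 0 to 0.841 CPM in ccl34b.1- cells (log2 fold change 6.09 ± 1.59, SE; edgeR adjusted p = 0.0258; count ratio 68.9, 95% counting interval 31.4 to 189). SQLE (ENSDARG00000079946) had 0, 152, 35.4 and 46.7 CPM in ccl34b.1+ libraries and 3 counts in all 4 ccl34b.1- libraries, a ratio of 291 with an interval of 99.1 to 1413 (8.16 ± 1.96, SE; edgeR adjusted p = 0.0138). Leaving out ccl34b.1- library 1, 3 or 4 or ccl34b.1+ library 2 ended the MSMO1 call (edgeR adjusted p of 0.0748 to 0.119), as did a fit of the compared groups alone (edgeR adjusted p = 0.0740), and leaving out ccl34b.1- library 1 or 4 or ccl34b.1+ library 2 ended that of SQLE (edgeR adjusted p of 0.0501 to 0.0667). HSD17B7 had groups apart as well, at 11.5 to 25.4 CPM in ccl34b.1+ and 0 to 0.452 CPM in ccl34b.1- libraries (6.71 ± 1.97, SE; edgeR adjusted p = 0.0591). Groups were apart for 2 of 18 synthesis genes, MSMO1 and HSD17B7 (11.1%), and for abca1b with ccl34b.1+ libraries higher, against 5.10% of all genes, and for NR1H3 and NPC2 (ENSDARG00000096979) with ccl34b.1+ libraries lower, against 4.81%. By raw library totals the NR1H3 groups overlapped here as well.

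In E. coli fish no gene of the 30 passed between the gates, where 2.31% of all genes did (287 of 12421); 6 had an unadjusted p under 0.05, against 21.2% of all genes, and DESeq2 called 6 of 27, against 16.9%. Libraries of ccl34b.1+ cells were all above those of ccl34b.1- cells for 6 of 18 synthesis genes, or 33.3%, against 8.12% of all genes. HSD17B7 ranged over 39.8 to 104 CPM in ccl34b.1+ and 0.203 to 2.02 CPM in ccl34b.1- libraries (6.34 ± 2.22, SE; edgeR adjusted p = 0.143). Also among the 6 were SQLE (ENSDARG00000079946), EBP, SC5D and LSS, which closes the ring to lanosterol. Of the handling genes ldlra and abca1b had ccl34b.1+ libraries all higher, and NR1H3 (10.6 to 17.7 against 37.2 to 59.6 CPM) and NPC2 (ENSDARG00000096979; 0.213 to 18.7 against 21.1 to 48.9 CPM) all lower, against 7.06% of all genes.

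In untreated fish 1 of 19 genes tested was higher in ccl34b.1+ cells and none lower, where 3.71% of all genes passed (321 of 8658). HSD17B7 had 70.7, 13.6, 38.8, 27.2 and 10.4 CPM in ccl34b.1+ libraries and 0 counts in all 5 ccl34b.1- libraries, at least 982-fold higher when set against a floor of 3 counts over that group (edgeR adjusted p = 0.0266). Leaving out any of ccl34b.1+ libraries 1 to 4 ended the call (edgeR adjusted p of 0.0535 to 0.0651), as did testing without a filter on low counts (edgeR adjusted p = 0.0503). In control fish the same gene had 4.55 and 2.88 CPM in ccl34b.1+ cells, against 0.489 and 30.1 CPM in ccl34b.1- cells, so counts were not confined to ccl34b.1+ cells. No gene of the 30 passed between the gates of control fish, where 0.869% of all genes did (108 of 12421); abca1b alone had an unadjusted p under 0.05, against 5.56% of all genes, and DESeq2 called 3 of 29, against 4.55%. Of these 3, ldlra had 2 counts in ccl34b.1+ and 0 in ccl34b.1- libraries, and TM7SF2 had 0 and 3, so both were near the floor. The third was abca1b, higher in ccl34b.1+ cells (log2 fold change 3.56, DESeq2 adjusted p = 0.00805), and its counts were not near the floor.

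PBS fish were also compared with control fish. The labels do not say how control fish were handled, so these differences cannot be read as the effect of injection alone. No gene passed in ccl34b.1+ cells (0.00% of 12421, 628 or 5.06% at an unadjusted p under 0.05, 83 or 0.786% by DESeq2) or in ccl34b.1- cells (0.00%, 642 or 5.17% at an unadjusted p under 0.05, 126 or 1.15% by DESeq2), and control groups held 2 libraries each. Of the 18 synthesis genes 13 had positive values in ccl34b.1+ cells, with a median log2 fold change of 1.47 against 0 over all genes, and 11 in ccl34b.1- cells, with a median of 0.30 against 0.18. The unadjusted p was under 0.05 for SQLE (ENSDARG00000079946) in ccl34b.1+ cells, at 58.4 ± 65.2 CPM in PBS and 0.360 ± 0.509 CPM in control libraries (SD, n = 4 and 2), and for FDFT1, squalene synthase, on the lower side (log2 fold change -6.45). In ccl34b.1- cells it was so for MSMO1 and HSD17B7, which stood at 0.353 and 0.113 CPM on average in PBS libraries and 29.5 and 15.3 CPM in control libraries. DESeq2 called 2 of 29 sterol genes in ccl34b.1+ cells, SQLE and TM7SF2, and 3 of 29 in ccl34b.1- cells, MSMO1, HSD17B7 and ldlra. The call of ldlra compared 1 count in all PBS libraries with 0 in control libraries, so it shows no difference. TM7SF2 had 92 counts, from 2 of the 4 PBS libraries, and 0 counts in control libraries.

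Genes around the pathway were counted from 4 further lists, and none of their members passed between E. coli and PBS in either gate or in the interaction. Of 19 tested genes of further sterol and isoprenoid synthesis, 12 were positive between E. coli and PBS in ccl34b.1+ cells, with a median of 0.27, and 8 in ccl34b.1- cells, with a median of -0.49. Of 20 tested genes of SREBP processing and LDL receptor control, 10 were positive in ccl34b.1+ and 9 in ccl34b.1- cells. Of 15 SREBP targets of fatty acid synthesis, 7 were positive in ccl34b.1+ and 5 in ccl34b.1- cells, and of 26 genes of cholesterol esters, oxysterols and transfer, 11 and 9 were. Medians of the last 3 lists lay between -0.68 and -0.03.

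Between the gates, members of these lists passed in 3 of the 4 treatments. In untreated fish, 1 of 17 tested genes of esters, oxysterols and transfer was higher in ccl34b.1+ cells and 2 lower, and 1 of 14 genes of SREBP processing and LDL receptor control was lower, where 3.71% of all genes passed in either direction. In PBS fish and in E. coli fish, 1 of 26 genes of esters, oxysterols and transfer was lower in each, where 2.69% of all genes passed in PBS fish and 2.31% in E. coli fish; with 1 gene each, these counts are near the share over all genes.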

How the data were processed

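Sorted pools of 100 cells were lysed, reverse-transcribed with an oligo-dT primer and amplified by Smart-seq2 (24 cycles for cDNA, 12 for the library), with no molecular identifiers, per the labels' protocols. Cells were sorted in 3 technical replicates, of which 1 went to sequencing once its cDNA had been examined. The deposited values are whole-number counts per Ensembl gene, made by the authors with STAR and featureCounts on GRCz11 (danRer11), and DESeq2 is named as well, per the submitters' processing notes. Versions, annotation, strand setting and the treatment of reads that fit several genes are not given in the sources used here, so counts of near-identical paralogs are uncertain.

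Names were taken from a supplied gene-name table, which paired 29201 of the 32520 IDs (89.8%) with a name. Genes were tested with edgeR 4.0.16 in R 4.3.3 (filterByExpr, TMM scaling, robust quasi-likelihood fit, Benjamini-Hochberg adjustment over all genes tested, threshold 0.05). The 10 libraries of untreated fish were fitted alone and the 18 of the injection experiment as 6 groups. The SE of a log2 fold change is its size divided by the square root of F. DESeq2 1.42.0, other scaling, no filter, a replicate term, fits of the compared groups alone, control fish in place of PBS fish, all 28 libraries in 1 fit and leaving out each library were the alternatives. The fits were tested on simulated data. Count ratios have 95% intervals that cover counting error only.

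Each fish gave 1 library per gate, so p-values rest on the spread between libraries within groups. Each gene had 1 shared estimate of this spread over all groups of a fit, so a test of 2 groups also carried the scatter of the others. That spread holds differences between fish together with those from the sorted pools and their amplification, which cannot be told apart here. The main fits treated libraries of both gates as independent. Tests between the gates and of the interaction therefore took no account of the 2 libraries of a fish being linked. The sterol genes and all gene and marker lists were chosen with earlier results of these data known. Values in every library are given for each sterol gene past the threshold in any comparison and, for E. coli against PBS in each gate, for the 5 synthesis and the 5 other genes with the smallest unadjusted p, except those averaging under 20 CPM in the higher group. The 2 IDs of 1 synthesis gene are not reported here singly and are included in counts and sums. Other genes are given by range or count, and a few more were named after their values were seen.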

Additional observations from a re-analysis of the deposited data

Results flagged for a closer look

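In 60 groups of 4 or 5 libraries, 13 held a library far from the others by Dixon's 95% criterion. For normally distributed values chance meets it in about 1 of 20 groups. Levels with many libraries at 0 are not of that kind, and the groups are not independent, so that rate is no baseline here. Of the 13, 12 concern single genes and 1 a sum, and many are low genes seen in 1 library of a group. In ccl34b.1+ cells of PBS fish, library 2 stood out for MSMO1 (70.15 CPM) and SC5D (20.67 CPM), and library 4 for SREBF1 (7.548 CPM). In ccl34b.1- cells of PBS fish, library 4 stood out for EBP (16.37 CPM), FDPS (18.52 CPM) and HSD17B7 (0.4516 CPM), and library 2 for SC5D (25.24 CPM). In ccl34b.1- cells of untreated fish, library 3 stood out for EBP (69.81 CPM), SC5D (36.23 CPM) and SREBF1 (9.04 CPM), and library 4 for MSMO1 (5.391 CPM). In ccl34b.1+ cells of untreated fish, library 3 stood out for NPC2 (ENSDARG00000090912) at 1404 CPM, and with it for the sum of uptake, movement and efflux genes at 1910 CPM. No sterol gene passed the test of a difference in response between the gates.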

How the results depend on the processing

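No log2 fold change of a gene given here with alternatives changed sign, but medians near 0 did, among them that of the sterol genes outside synthesis between E. coli and PBS in ccl34b.1+ cells and, as below, that of all genes in the interaction. Genes passing, over all genes and then among the sterol genes in brackets where that count moved, were as follows. With no filter on low counts, 284 passed between E. coli and PBS in ccl34b.1+ cells, 178 (2) in ccl34b.1- cells, 146 in the interaction, 175 between the gates of control and 472 of E. coli fish, 21 and 13 between PBS and control in ccl34b.1+ and ccl34b.1- cells, and 0 sterol genes between the gates of untreated fish. DESeq2 called 981, 1194 (7) and 596 (1) in the first 3 comparisons, 583 between the gates of untreated, 456 (3) of control, 1102 of PBS and 1589 (6) of E. coli fish, and 83 (2) and 126 (3) between PBS and control. With only the compared groups in the fit, 320 and 9 (0) passed between E. coli and PBS in ccl34b.1+ and ccl34b.1- cells, 112 between the gates of E. coli fish and 3 between PBS and control in ccl34b.1+ cells, and 1 sterol gene between the gates of PBS fish. With control fish in place of PBS fish, 0 sterol genes passed in ccl34b.1- cells, and with all 28 libraries in 1 fit 782 (3) passed between the gates of untreated fish. DESeq2's size factors moved the median log2 fold change of all genes to -0.29, against -0.08, between E. coli and PBS in ccl34b.1- cells, to 0.02, against -0.18, in the interaction, and to -0.23, against -0.11, between the gates of PBS fish. By raw library totals, control ccl34b.1+ cells averaged 126 CPM for synthesis and 936.5 CPM for uptake, movement and efflux, and E. coli ccl34b.1+ cells 1100 CPM for the second sum. The cause of these moves was not tested.

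Leaving out 1 library at a time gave 101 to 162 genes between E. coli and PBS in ccl34b.1+ cells, 26 to 90 (0 to 2) in ccl34b.1- cells, 14 to 55 in the interaction, 231 to 315 (0 to 2) between the gates of untreated, 38 to 61 of control, 227 to 308 (1 to 3) of PBS and 162 to 351 (0 to 1) of E. coli fish, and 0 to 1 between PBS and control in ccl34b.1- cells.

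With a replicate block, 0 sterol genes passed between E. coli and PBS in ccl34b.1- cells and 187 genes (0 sterol genes) between the gates of untreated, 422 (1) of control fish, 1 sterol gene of PBS fish, and 22 (1) and 5 genes between PBS and control in ccl34b.1+ and ccl34b.1- cells; MSMO1 and SQLE were not tested in every such fit. The block ended the calls of HSD17B7 between the gates of untreated fish (edgeR adjusted p = 0.169) and of MSMO1 between those of PBS fish (edgeR adjusted p = 0.169), and between E. coli and PBS it gave synthesis medians of 2.80 in ccl34b.1+ and 2.99 in ccl34b.1- cells and a median of -0.15 for the other sterol genes in ccl34b.1+ cells. Between treatments the block joined same-numbered libraries of different fish, which share no known link. These synthesis medians cover 16 genes in ccl34b.1+ and 10 in ccl34b.1- cells. Same-numbered libraries correlated at 0.00297 to 0.0389 (14 pairs) and others at -0.0389 to 0.0216 (40 pairs), with 24 of 28 libraries closest to their own number, a hint from the data and not a pairing. Values were centred within each group first, so the 28 outcomes are linked. Control libraries, 2 per gate, could give only 0.0389 and -0.0389. The injection libraries held 2241693 to 9691032 counts from 100 cells each. Of the 20 synthesis genes, 13 had counts in each control library of ccl34b.1- cells, and 5 to 9 in the deeper untreated libraries of that gate. The part of depth in the detection of low genes was not tested.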
